A study of Mus musculus with 6 samples.

Results

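The BCL2 family comprises the proteins that decide whether the outer mitochondrial membrane is opened during apoptosis, and 10 of its genes were followed across the arrays: the anti-apoptotic members Bcl2, Bcl2l1 (which encodes BCL-XL) and Mcl1, the effectors Bax and Bak1, and the BH3-only members Bid, Bad, Bcl2l11 (BIM), Pmaip1 (NOXA) and Bbc3 (PUMA). Their probe sets were taken as those to which the platform annotation assigns only that gene symbol. Of the 10 genes, 9 had such a probe set, 23 probe sets in all out of 45141 on the array, and Bax was not analysed here. The paper describes the cells as fibroblasts derived from mouse embryonic stem cells. Many of the markers given below went against that description on the KO-labelled arrays. There were 3 arrays labelled KO (CD98hc null, per the paper) and 3 labelled WT, numbered 1, 3 and 5 in each group. CD98hc, encoded by Slc3a2, is the heavy chain of several amino acid transporters. Both groups were grown in the same complete medium, which held β-mercaptoethanol. The sources used here give neither the number of clones behind each genotype nor the culture behind each array. The p-values below set differences against the spread between arrays, and that spread may be technical. The arrays may therefore not be independent replicates of a genotype.

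Slc3a2, the deleted gene, went against the labels. It averaged 11.58 ± 0.06 on the KO-labelled arrays and 10.60 ± 0.09 on the WT-labelled arrays (log2 values, SD, n = 3 each), which is higher where the gene should be deleted, and the position of its probe set relative to the deletion is not known here. All directions are therefore those of the labels. Markers of pluripotent stem cells were higher on the KO-labelled arrays for 16 of 17 measured genes, the exception being Dppa3, and their summed linear level ran between 35124.8 and 38742 on the KO-labelled arrays and between 1070.03 and 1163.19 on the WT-labelled arrays. Fibroblast markers were lower for 13 of 19 measured genes and higher for 1, with a summed level of 2946.42 to 4041.77 on the KO-labelled arrays and 26350.6 to 37175.3 on the WT-labelled arrays. Of the fibroblast markers, Col3a1, Col6a1, Cav1 and Cd44 averaged 4.42, 4.22, 4.16 and 4.21 on the KO-labelled arrays. These are near the median of the nonspecific control probe sets (4.23), as were Lum and Pdgfra under both labels. Others stayed well above it on the KO-labelled arrays, such as Vim at 10.61, Fn1 at 10.03 and Col5a1 at 7.43, and Fn1 did not pass (adjusted p = 0.0715 by limma). Thy1 was the 1 called higher, at 4.89 on the KO-labelled and 4.52 on the WT-labelled arrays. These marker levels differed between the same groups as every change described below, and their part in those changes was not tested. In RNA from a whole culture, fewer cells of a type and less RNA per cell cannot be told apart. Both arrays numbered 3 also stood apart from the other 4, with all 9 probe sets of the hybridisation controls lower (by 1.16 on the log2 scale on average), so differences within replicates 1 and 5 and within replicate 3 are given beside those of all 6 arrays.

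In a living cell, BCL2, BCL-XL and MCL1 hold the effectors BAX and BAK inactive. BH3-only proteins are made or activated under stress, bind the anti-apoptotic proteins through their BH3 helix and free or directly activate BAX and BAK, which then form pores and let cytochrome c reach APAF1 and caspase-9. The pairings differ, since NOXA chiefly binds MCL1 and BAD binds BCL2 and BCL-XL, whereas BIM and PUMA bind all of them. Transcripts are only one level of this control, because MCL1 is rapidly degraded, BAD is switched off by phosphorylation and BID is activated by cleavage.

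The stretches of 250 bases before the transcript start of Bcl2, Mcl1 and Bbc3 are shown because these are the anti-apoptotic member that fell most, the anti-apoptotic member that rose, and a BH3-only member whose window holds a MYC E-box. They are from RefSeq (GRCm38.p6), written along the gene's own strand, with GC boxes (GGGCGG, on either strand) and MYC E-boxes (CACGTG) in capitals, and adjacent GC boxes may overlap.
Bcl2 (chr1:106714291-106714540, minus strand): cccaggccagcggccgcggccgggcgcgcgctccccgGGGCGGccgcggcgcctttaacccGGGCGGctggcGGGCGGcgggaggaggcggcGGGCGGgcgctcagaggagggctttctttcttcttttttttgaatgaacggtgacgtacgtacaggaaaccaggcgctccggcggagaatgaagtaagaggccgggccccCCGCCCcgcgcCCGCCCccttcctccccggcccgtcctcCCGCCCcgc
Mcl1 (chr3:95658471-95658720, plus strand): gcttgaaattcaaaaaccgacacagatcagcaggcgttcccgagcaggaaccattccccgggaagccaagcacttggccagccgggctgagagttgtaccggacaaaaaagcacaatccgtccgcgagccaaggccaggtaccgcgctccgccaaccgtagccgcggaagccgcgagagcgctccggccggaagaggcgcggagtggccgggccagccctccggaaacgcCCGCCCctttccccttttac
Bbc3 (chr7:16310181-16310430, plus strand): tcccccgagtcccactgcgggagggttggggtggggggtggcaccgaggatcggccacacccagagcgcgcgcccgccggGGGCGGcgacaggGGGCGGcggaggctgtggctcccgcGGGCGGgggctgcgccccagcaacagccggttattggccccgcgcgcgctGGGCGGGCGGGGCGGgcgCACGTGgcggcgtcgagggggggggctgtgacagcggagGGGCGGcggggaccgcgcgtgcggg
The Bcl2 window held 7 GC boxes at 74.8% G and C, the Mcl1 window 1 at 64.4%, and this window of Bbc3 7 GC boxes and 1 E-box at 81.6%. The median over all 32851 windows of the same length was 52.4% G and C, and 32.74% of them held a GC box and 6.02% an E-box. Windows were read for 9 of the 10 genes, 15 windows in all, of which 10 held a GC box. Pmaip1, the member with the largest measured change, was left out, so these counts do not cover it. An E-box was in 2 of the 15, of Bbc3 and Bax. The letters of an AP-1 site (TGANTCA, 6.75% of all windows) and of a STAT site (TTCNNNGAA, 7.02%) were in 0 of the 15, and those of a FOXO site (GTAAACA, 3.17%) were in 2, of Bbc3 and Bcl2l11. An NF-kB site (7.25% of all windows) was in 2, of Bbc3 and Bcl2l1, and a p53 half-site (7.13%) in 1, of Bax. These matches describe letters only.

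Across the 9 measured members, 4 were higher and 2 were lower on the KO-labelled arrays at an adjusted p under 0.05, and 3 did not pass. The 4 were Mcl1 and the BH3-only members Bid, Pmaip1 and Bbc3, and the 2 were Bcl2 and the BH3-only member Bad. The most variable probe set (by SD over the 6 arrays) stood for each gene, and p-values were adjusted over all 17097 genes with limma. Calls were common on these arrays: 22.6% of all genes were called higher and 19.2% lower, and the groups did not overlap for 51.5% of genes. With a change over 2-fold asked as well, Pmaip1 remained as the 1 member higher (9.27% of all genes), and Bcl2 and Bad as the 2 lower (10.1%). The median log2 fold change was 0.31 over the members and 0.018 over all genes, and the median absolute change was 0.64 over the members and 0.29 over all genes. Taking the most variable probe set favours large changes, more so for genes with several probe sets, and many of all genes lie near background. Of the 10431 genes with a probe set whose mean was above 5.734, the median of all probe sets, 3069 were called higher and 2920 lower. The members gave 4 and 2 there as well. Of the 23 probe sets, 6 were called higher (16.8% of all probe sets on the array that are not controls), 7 lower (16%), and 10 did not pass. The groups did not overlap for any of those called, which calling itself favours, and did not overlap for 45.9% of all probe sets that are not controls. Levels are RMA log2 values, which depend on the probes, so they are compared between groups and not between genes.

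**Figure D1:**
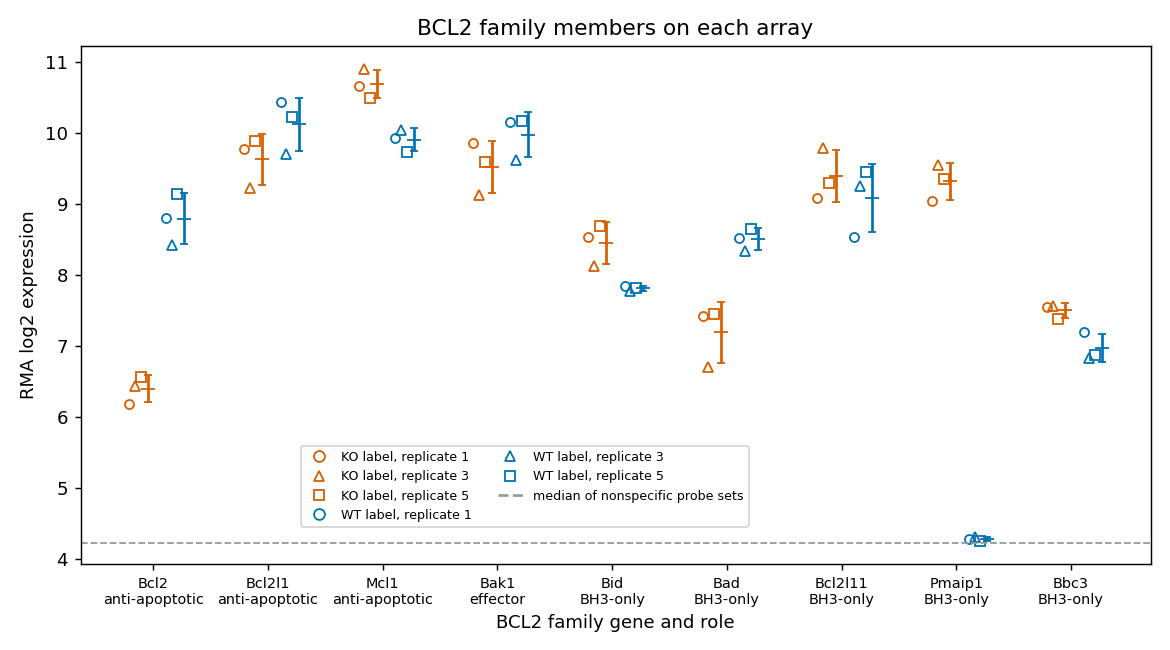
RMA log2 expression (vertical axis) of the representing probe set of each of the 9 measured BCL2 family genes (horizontal axis) on the 3 KO-labelled (orange, left) and 3 WT-labelled (blue, right) arrays, with the mean ± SD as a bar beside the points and the median of the nonspecific probe sets as a dashed line. Pmaip1 sits between 9.04 and 9.55 on the KO-labelled arrays and at the dashed line on the WT-labelled arrays, and Bcl2 shows the reverse order with no overlap.

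Among the anti-apoptotic genes, Bcl2 was lower and Mcl1 higher on the KO-labelled arrays. Bcl2, the founding member of the family, had log2 values of 6.19, 6.43 and 6.57 on the KO-labelled arrays and of 8.80, 8.42 and 9.14 on the WT-labelled arrays. The groups were far apart, at 6.40 ± 0.19 against 8.79 ± 0.36 (SD, n = 3 each), a log2 fold change of -2.39 (SE 0.194, 5.24-fold lower, adjusted p = 0.000165 by limma). Among all genes 4.75% changed by more. The other Bcl2 probe set gave 4.50, 4.53 and 4.38 on the KO-labelled arrays and 6.23, 6.40 and 6.47 on the WT-labelled arrays, so both probe sets placed all KO-labelled arrays below all WT-labelled arrays. Its log2 fold change was -1.90 (SE 0.0885), and its KO-labelled values lay close to the nonspecific median. For the representing probe set, the difference was -2.59 within replicates 1 and 5 and -1.99 within replicate 3.

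Mcl1, which encodes a short-lived protein on which many dividing cells depend, moved the other way. It read 10.66, 10.89 and 10.49 on the KO-labelled arrays and 9.93, 10.04 and 9.73 on the WT-labelled arrays, with no overlap. The log2 fold change was 0.78 (SE 0.131, 1.72-fold, adjusted p = 0.00358 by limma), a change that 25.6% of all genes exceeded. All 3 Mcl1 probe sets passed, the other 2 at 0.55 (SE 0.115) and 0.57 (SE 0.127). The lowest KO-labelled array was above the highest WT-labelled array for each of them, by 9.83 against 9.53 and by 10.40 against 10.13. Both fell short of the threshold within the 4 arrays of replicates 1 and 5, where their differences were 0.58 and 0.59 (adjusted p = 0.078 and 0.0879 by limma), and the second also without WT replicate 3 (0.54, adjusted p = 0.0536). For the representing probe set the difference was 0.75 within replicates 1 and 5, where it passed, and 0.84 within replicate 3.

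Bcl2l1, the gene of BCL-XL, was lower on the KO-labelled arrays by 4 probe sets of unequal certainty. The representing one gave 9.77, 9.22 and 9.89 on the KO-labelled arrays and 10.43, 9.70 and 10.23 on the WT-labelled arrays, and WT replicate 3 lay below 2 of the 3 KO-labelled arrays. Its log2 fold change was -0.49 (SE 0.244, 95% confidence interval -1.08 to 0.10, adjusted p = 0.166 by limma) and did not pass, and without KO replicate 3 it was -0.29. Both arrays numbered 3 were low for this probe set, at -0.61 relative to the other KO-labelled and -0.62 relative to the other WT-labelled arrays. The difference was -0.49 within replicates 1 and 5, where it passed (adjusted p = 0.0311 by limma), and -0.48 within replicate 3. With this division of the arrays as a covariate the adjusted p was 0.00434 by limma. The mean of the Bcl2l1 probe sets gave -0.42 (adjusted p = 0.0272 by limma). Another 2 Bcl2l1 probe sets passed without the covariate, at -0.52 (SE 0.121, adjusted p = 0.0183) and -0.47 (SE 0.121, adjusted p = 0.0265). The first of these read 9.10, 8.84 and 9.16 on the KO-labelled arrays and 9.73, 9.46 and 9.46 on the WT-labelled arrays. The second had its nearest arrays close together, at 7.94 for KO replicate 5 and 8.04 for WT replicate 5. The first did not pass without WT replicate 1 (-0.43, adjusted p = 0.0518 by limma), and the second without any 1 of KO replicates 1 and 3 and WT replicates 1 and 3 (-0.45 to -0.41, adjusted p between 0.0758 and 0.0857). Within replicates 1 and 5 neither passed (adjusted p = 0.0625 and 0.177), and the second also did not pass with replicate number entered as a block (adjusted p = 0.0629) or after quantile normalisation (adjusted p = 0.0675). With the division of the replicate 3 arrays as a covariate both passed (adjusted p = 0.00899 and 0.0363 by limma). The fourth lay near the nonspecific median under both labels (4.26 ± 0.07 against 4.44 ± 0.15, KO-labelled and WT-labelled) and gave -0.19.

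**Figure D2:**
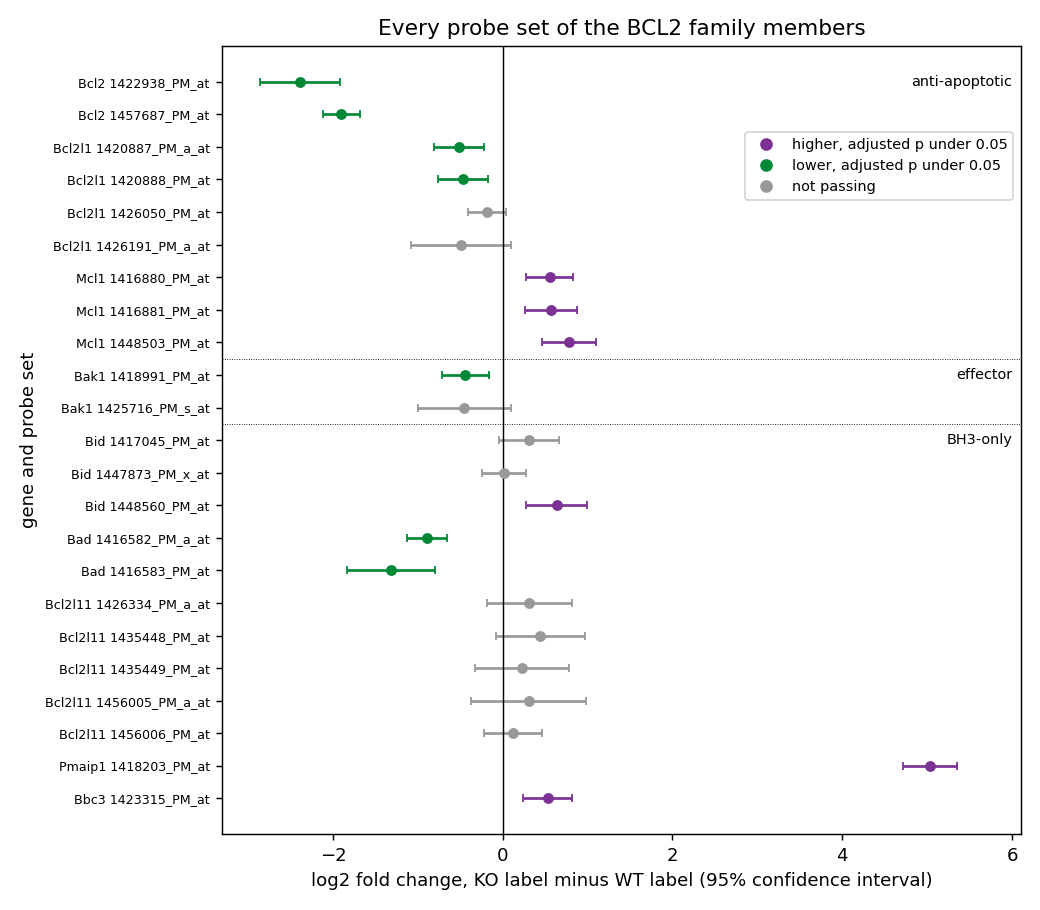
Log2 fold change of KO-labelled over WT-labelled arrays (horizontal axis, points, with 95% confidence intervals from limma as bars) for all 23 probe sets of the BCL2 family members (vertical axis), grouped by role, with those called higher in purple, those called lower in green and the rest in grey. The 2 Bcl2 probe sets lie at -2.39 and -1.90, the 3 of Mcl1 between 0.55 and 0.78, and Pmaip1 at 5.03.

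Of the effectors, Bak1 alone was measured, and its 2 probe sets gave nearly the same difference with different spread. BAK is the effector that resides in the outer mitochondrial membrane also in healthy cells. The representing probe set read 9.85, 9.13 and 9.59 on the KO-labelled arrays and 10.15, 9.61 and 10.16 on the WT-labelled arrays. The groups overlapped through WT replicate 3, and the log2 fold change of -0.45 (SE 0.228, adjusted p = 0.174 by limma) did not pass. With single arrays left out it ran between -0.63 (without WT replicate 3) and -0.25 (without KO replicate 3). Both arrays numbered 3 were again the low ones, and the difference was -0.43 within replicates 1 and 5 and -0.48 within replicate 3 (adjusted p = 0.0084 by limma with that division as a covariate). The second probe set read 7.92, 7.86 and 7.96 on the KO-labelled arrays and 8.59, 8.18 and 8.29 on the WT-labelled arrays. It passed at -0.44 (SE 0.115, adjusted p = 0.0270 by limma), and without KO replicate 1, KO replicate 3, KO replicate 5 or WT replicate 5 the adjusted p was 0.0722, 0.0744, 0.0618 or 0.0530. It also did not pass within replicates 1 and 5 (-0.50, adjusted p = 0.0587), after quantile normalisation (-0.35, adjusted p = 0.0665) or with a robust variance trend in eBayes (adjusted p = 0.0507).

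**Figure D3:**
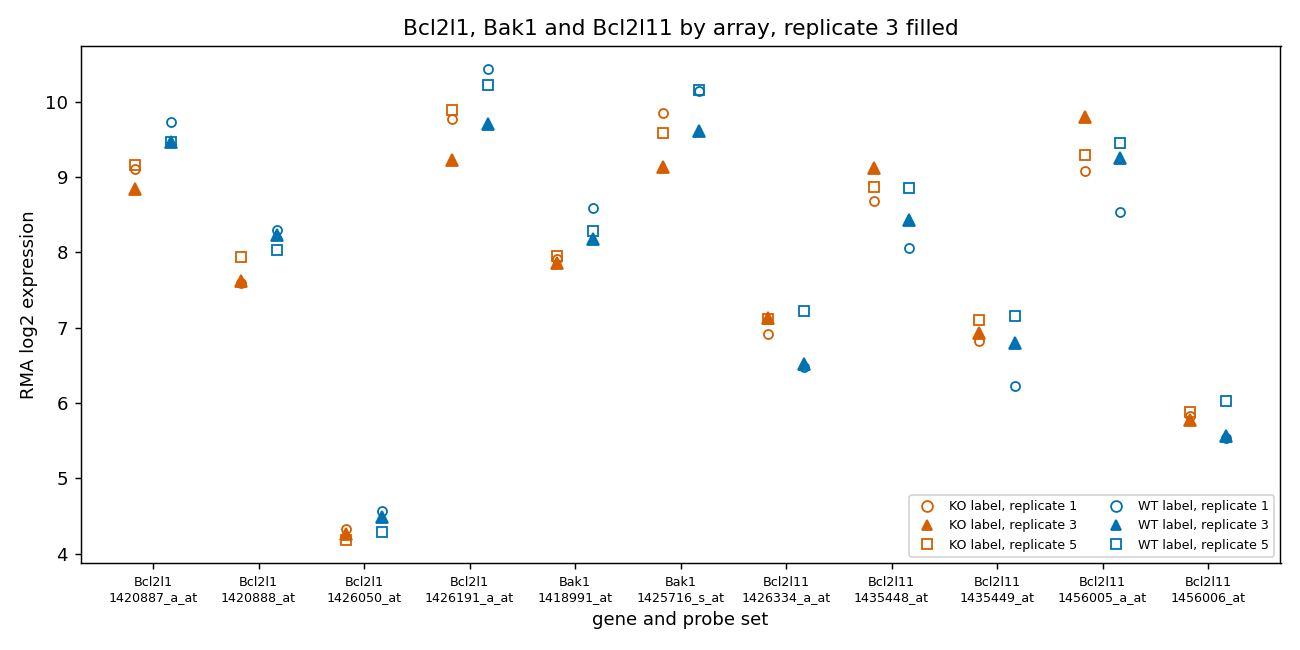
RMA log2 expression (vertical axis) of every probe set of Bcl2l1, Bak1 and Bcl2l11 (horizontal axis) on each KO-labelled (orange, left) and WT-labelled (blue, right) array, with the replicate 3 arrays as filled triangles. For the representing probe sets of Bcl2l1 and Bak1 the replicate 3 array is the lowest of its group under both labels, at 9.22 and 9.13 for KO and 9.70 and 9.61 for WT, whereas for Bcl2l11 WT replicate 5 lies within or above the KO-labelled arrays.

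The BH3-only genes moved in both directions, with Pmaip1, Bid and Bbc3 higher and Bad lower. Pmaip1, the gene of NOXA, had the largest measured change of the 9 members. It read 9.04, 9.55 and 9.35 on the KO-labelled arrays and 4.29, 4.30 and 4.26 on the WT-labelled arrays, where it stood at the level of the nonspecific probe sets (median 4.23). The means were 9.31 ± 0.26 and 4.28 ± 0.02 for KO-labelled and WT-labelled arrays (SD, n = 3 each), a log2 fold change of 5.03 (SE 0.131, adjusted p = 2.1e-06 by limma) or 32.7-fold as measured. Because the WT-labelled values are at the background of the array, the size of this change depends on that background. It was 4.92 within replicates 1 and 5 and 5.24 within replicate 3. A single probe set measured this gene.

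Bbc3, which encodes PUMA, a target of p53, rose less. It read 7.55, 7.57 and 7.38 on the KO-labelled arrays and 7.20, 6.83 and 6.88 on the WT-labelled arrays, so the groups did not overlap, with WT replicate 1 nearest to the KO-labelled arrays. The log2 fold change was 0.53 (SE 0.118, 1.44-fold, adjusted p = 0.012 by limma), with 35.8% of all genes changing by more. The difference was 0.43 within replicates 1 and 5, where it did not pass (adjusted p = 0.0981 by limma), and 0.73 within replicate 3. Adjusted over all probe sets, it also did not pass without KO replicate 1, WT replicate 3 or WT replicate 5 (adjusted p = 0.0527, 0.0518 and 0.0508 by limma).

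Bid, whose protein is cut by caspase-8 and then moves to mitochondria, passed by 1 of its 3 probe sets. That probe set, the representing one, gave 8.53, 8.12 and 8.69 on the KO-labelled arrays and 7.85, 7.77 and 7.81 on the WT-labelled arrays. The groups did not overlap, and the log2 fold change was 0.64 (SE 0.149, adjusted p = 0.0141 by limma), with 0.78 within replicates 1 and 5 and 0.35 within replicate 3. Adjusted over all probe sets, it did not pass without KO replicate 1 or WT replicate 3 (adjusted p = 0.0604 and 0.0614 by limma). The brightest Bid probe set read 9.45, 9.06 and 9.45 on the KO-labelled arrays and 9.04, 9.18 and 8.82 on the WT-labelled arrays, and KO replicate 3 lay below WT replicate 3. It gave 0.31 (SE 0.145, adjusted p = 0.165 by limma), with 0.52 within replicates 1 and 5 and -0.12 within replicate 3, and it passed without KO replicate 3 (0.44, adjusted p = 0.0463). The third averaged 4.61 ± 0.19 on the KO-labelled and 4.59 ± 0.04 on the WT-labelled arrays and gave 0.02, again with opposite signs in the 2 divisions (0.10 and -0.16). These 2 Bid probe sets were the only ones of the 23 whose sign differed between replicates 1 and 5 and replicate 3, and the other 21 kept theirs.

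Bad was the BH3-only gene that fell. BAD, when it is not phosphorylated, binds BCL2 and BCL-XL, and kinases of survival signalling such as AKT and PIM keep it phosphorylated and bound to 14-3-3 proteins. The representing probe set read 7.42, 6.70 and 7.45 on the KO-labelled arrays and 8.51, 8.34 and 8.65 on the WT-labelled arrays, a log2 fold change of -1.31 (SE 0.214, 2.48-fold lower, adjusted p = 0.00323 by limma). Its second probe set was brighter and tighter, at 10.12, 10.13 and 10.21 on the KO-labelled arrays and 10.86, 11.15 and 11.12 on the WT-labelled arrays. That gave -0.89 (SE 0.0968), so both probe sets were lower with no overlap, with differences of -1.15 and -0.83 within replicates 1 and 5 and of -1.64 and -1.02 within replicate 3.

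Bcl2l11, the gene of BIM, had 5 probe sets, and 0 of them passed. Their log2 fold changes ran between 0.12 and 0.44, and the groups overlapped for all 5. The representing probe set read 9.08, 9.79 and 9.29 on the KO-labelled arrays and 8.54, 9.26 and 9.45 on the WT-labelled arrays, at 0.31 (SE 0.282, 95% confidence interval -0.37 to 0.99, adjusted p = 0.462 by limma). WT replicate 5 was the highest WT-labelled array for all 5 probe sets, and without it 3 of them passed, at 0.55, 0.65 and 0.28 (adjusted p = 0.0111, 0.0438 and 0.0454 by limma). The representing probe set was not among these. It gave 0.49 without WT replicate 5 and 0.46 without KO replicate 1, but 0.035 without WT replicate 1 and 0.10 without KO replicate 3. The difference of the representing probe set was 0.19 within replicates 1 and 5 and 0.53 within replicate 3, and its interval admits a change of up to 0.99.

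Other relatives of the family were measured for 13 of 15 genes, of which 2 were higher and 3 lower. The share called was 38.5%, and over all genes 22.6% were called higher and 19.2% lower. Bnip3l, a mitochondrial protein that marks mitochondria for autophagy, read 7.68, 8.16 and 7.58 on the KO-labelled arrays and 9.04, 9.56 and 9.63 on the WT-labelled arrays. It fell by 1.60 on the log2 scale (SE 0.211, adjusted p = 0.00127 by limma), and its other 2 probe sets gave -0.84 and -1.61. Bok, a relative of BAX and BAK, read 7.60, 7.99 and 7.58 on the KO-labelled arrays and 9.06, 8.96 and 8.59 on the WT-labelled arrays, and fell by 1.15 (SE 0.164, adjusted p = 0.00181 by limma). Bcl2l2, the gene of the anti-apoptotic BCL-W, fell by 0.71 (adjusted p = 0.0101 by limma), but its brightest probe set gave -0.05. Bcl2l12 rose by 0.73 (adjusted p = 0.0148 by limma). Bik, a BH3-only gene, was called at 0.34 (adjusted p = 0.0238 by limma) on a probe set at 4.24 ± 0.15 on the KO-labelled and 3.90 ± 0.01 on the WT-labelled arrays, at or under the nonspecific median, and its brightest probe set gave -0.00447. The remaining Bik probe set averaged 5.16 ± 0.12 on the KO-labelled and 4.83 ± 0.04 on the WT-labelled arrays. It passed at 0.33 with no overlap (adjusted p = 0.0224 by limma). The representing Bik probe set did not pass without KO replicate 1, KO replicate 3 or any 1 of the WT-labelled arrays (0.26 to 0.34, adjusted p between 0.055 and 0.0671 by limma). The BH3-only gene Bmf did not pass, at 0.83 (SE 0.427, adjusted p = 0.178 by limma). Its values of 7.61, 7.21 and 6.57 on the KO-labelled arrays overlapped with 5.63, 6.13 and 7.13 on the WT-labelled arrays, and without WT replicate 5 its change was 1.25 (adjusted p = 0.0314 by limma), whereas without WT replicate 1 it was 0.50 (adjusted p = 0.425). Bnip3 did not pass either (-0.72, SE 0.451, adjusted p = 0.264 by limma), and its value was -0.26 without KO replicate 5. The BH3-only gene Hrk did not pass at 0.21 (adjusted p = 0.231 by limma, and 0.11 without KO replicate 3), but it did with replicate number entered as a block (adjusted p = 0.0478) or with the division of the replicate 3 arrays as a covariate (adjusted p = 0.0346). Bcl2l13 did not pass at -0.08, whereas its brightest probe set was lower with no overlap, at -0.45 (adjusted p = 0.0223 by limma). Bcl2a1a, Bcl2l10, Bcl2l14 and Bcl2l15 gave differences between -0.02 and 0.03, with Bcl2l10 and Bcl2l15 near the nonspecific median under both labels.

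**Figure D4:**
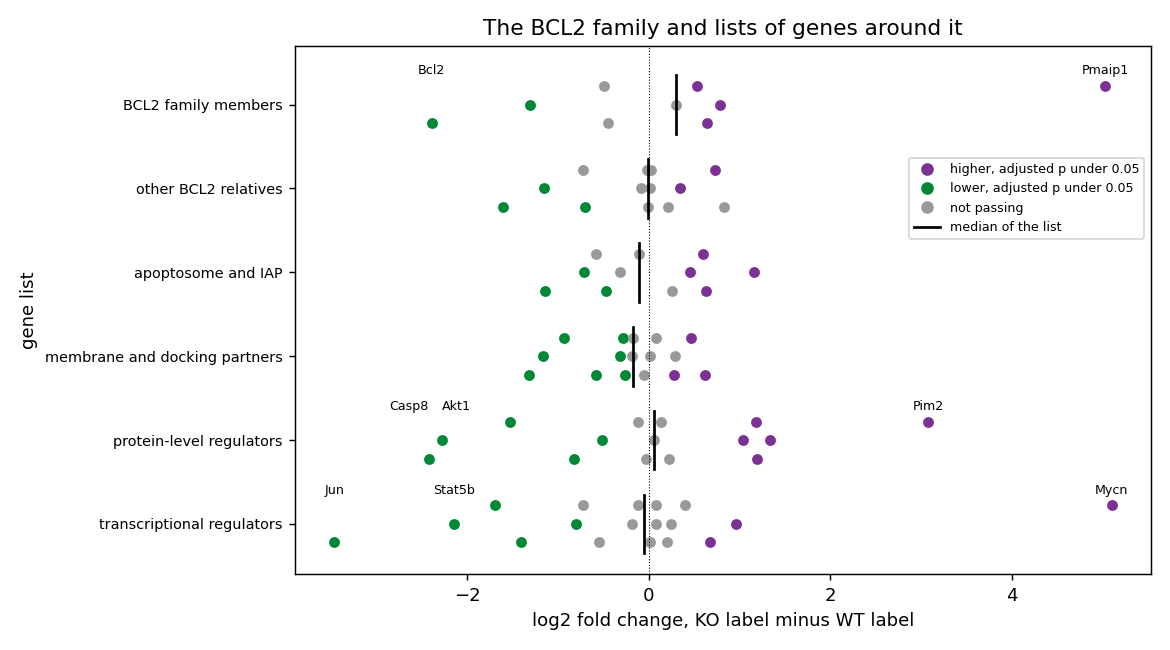
Log2 fold change of KO-labelled over WT-labelled arrays (horizontal axis) for each measured gene (points) of the BCL2 family members and 5 lists of genes around them (vertical axis), with those called higher in purple, those called lower in green, the rest in grey, and the median of each list as a black line. The medians of the 5 lists lie between -0.18 and 0.06 and that of the members at 0.31, and the named points are the called genes that changed by more than 2 on the log2 scale.

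Downstream of the mitochondrial pore, 4 of 11 measured genes of the apoptosome and of the inhibitors of apoptosis (IAP) were higher and 3 lower, with a median of -0.11. The share called was 63.6%, and over all genes 22.6% were called higher and 19.2% lower. Birc2, which encodes the ubiquitin ligase cIAP1, rose by 1.15 (SE 0.167, adjusted p = 0.00192 by limma). Xiap, the direct inhibitor of caspases, fell by 1.14 (SE 0.187, adjusted p = 0.00323 by limma), at 4.66, 4.64 and 4.60 on the KO-labelled arrays and 6.08, 5.91 and 5.34 on the WT-labelled arrays, and 5 of its 7 probe sets were called lower and 0 higher. Htra2, a mitochondrial protease that antagonises the IAPs, fell by 0.71 (SE 0.0747). Among membrane and docking partners, 3 of 16 were higher and 7 lower (62.5% called), with a median of -0.18. Without WT replicate 3 or WT replicate 5 the count lower was 4. The IP3 receptor genes Itpr2 and Itpr3, calcium channels of the endoplasmic reticulum to which BCL2 binds, fell by 1.32 (SE 0.0899) and 1.16 (SE 0.333, adjusted p = 0.031 by limma). For Itpr2 the representing probe set was the most extreme of 5, with KO-labelled values of 4.58, 4.35 and 4.61 near the nonspecific median. Its brightest probe set gave -0.38, the other 3 gave -0.59, -0.75 and -0.06, and the mean of its probe sets was -0.62. Itpr3 did not pass without WT replicate 1, 3 or 5 (-1.26, -1.23 and -1.01, adjusted p = 0.0597, 0.0702 and 0.0903). Dynll2, the dynein light chain that holds BMF, fell by 0.94 (SE 0.158).

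Genes that act on BCL2 family proteins were split evenly, with 5 of 15 higher, 5 lower and a median of 0.06. The share called was 66.7%, and over all genes 22.6% were called higher and 19.2% lower. Pim2, a kinase of BAD, rose by 3.08 (SE 0.22), with 10.55, 10.88 and 9.96 on the KO-labelled arrays and 7.41, 7.37 and 7.37 on the WT-labelled arrays. Akt1, another kinase of BAD, fell by 2.27 (SE 0.155), and all 3 of its probe sets were lower. Casp8, which cleaves BID, fell by 2.42 (SE 0.0959), with 7.39, 7.07 and 7.25 on the KO-labelled arrays and 9.64, 9.62 and 9.72 on the WT-labelled arrays. Of the transcription factors known to act on these genes, 3 of 18 were higher and 5 lower (44.4% called), with a median of -0.05. Mycn, a proto-oncogene of the MYC family, rose by 5.10 (SE 0.103) and by 2.72 and 2.99 in its other 2 probe sets. Jun, a subunit of AP-1, fell by 3.47 (SE 0.355). Stat5b fell by 2.15 (SE 0.103). Trp53 and Nfkb1 had no probe set used here. The adjusted p of these 6 genes was between 1.0e-06 (Mycn) and 0.000419 (Jun) by limma.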

How the data were processed

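Amplified RNA of 6 samples was hybridised to Affymetrix mouse expression arrays. Per the labels and the paper's methods, the authors corrected and normalised the arrays by RMA, which yields 1 log2 value for every probe set, and the deposited log2 table was used as it stands. Normalisation between arrays removes any shift shared by all probe sets, so changes are relative to the other genes. No intensities or detection calls were used, so no detection limit was set, and the small number of arrays limits precision.

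Genes were named from the platform annotation, in which 28898 probe sets had 1 symbol, 551 several and 15692 none here. KO-labelled minus WT-labelled arrays were compared in limma 3.58.1 under R 4.3.3 (lmFit, then eBayes), with Benjamini-Hochberg adjustment over 17097 genes or, for single probe sets, over 45037 probe sets other than the 104 controls. Calls were made at an adjusted p under 0.05. The scan batch that the authors used as a covariate is not given in the sources here and was left out. The most variable probe set stood for a gene. The members and lists were chosen with earlier results of these data known. Named genes are the 10 members, every measured relative, and up to 3 genes per list with the largest change among those called. Dppa3, Lum, Pdgfra, Thy1, Vim, Fn1, Col5a1 and 4 further fibroblast markers were named after their values were seen. On simulated data for this comparison over 17097 genes, 36 of 100 genes changed by 0.5 and 88 of 100 changed by 1.5 (log2) were called, as were 9 of 16897 unchanged genes. The simulated noise was independent between arrays, without the division of the replicate 3 arrays. Far fewer genes were changed than were called on the real arrays, so these rates need not hold there. Alternatives covered blocks and batches, normalisation, filters, the variance model, the choice of probe set, thresholds and each array left out. Plots used Python 3.11.15 and matplotlib 3.10.9.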

Additional observations from a re-analysis of the deposited data

How the results depend on the processing

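Over the alternatives run, 134 values of single member genes kept their side of the threshold, 7 passed where they had not, 3 no longer passed and 0 changed sign. Of the values of single member probe sets, 277 kept their side, 10 passed, 25 no longer passed and 5 changed sign, and of those of other named genes 380, 4, 12 and 13. The 3 values of member genes that no longer passed were Bid with its brightest probe set (0.31, adjusted p = 0.148 by limma) or the mean of its probe sets (0.32, adjusted p = 0.0737), and Bbc3 within replicates 1 and 5. With the replicate number as a block, or with the division of replicate 3 from replicates 1 and 5 as a covariate, 4 members were lower instead of 2, Bcl2l1 and Bak1 joining. Deviations from the group means correlated by 0.057, 0.558 and 0.152 between the arrays numbered 1, 3 and 5. Those numbered 3 also share the lower hybridisation controls, but with 0.057 for number 1 the numbers were not taken as pairs. The block gave 4272 genes higher and 3606 lower, against 3869 and 3291 without it, and KO replicate 1 correlated better with WT replicate 5 (0.31). With a change over 2-fold, 1 member (9.27% of all genes) and 1 probe set were higher and 3 probe sets lower. At an adjusted p under 0.01, 2 members and 2 probe sets were higher and 4 probe sets lower. Leaving out single arrays gave 3 (without WT replicate 3) to 8 (without WT replicate 5) probe sets higher while the counts of members stayed at 4 higher and 2 lower. Over all genes these fits gave 3263 to 3639 higher and 2847 to 3089 lower. Shares over all genes at an adjusted p under 0.01 were not counted, nor were shares over all probe sets in any of these settings. Those member counts therefore cannot be set against the whole array. Median centring moved the split over all genes to 3323 higher and 3761 lower, and no member's call.

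Where signs turned, the turned values were small, but some had turned from larger ones. Bik gave -0.00447 with its brightest probe set and 0.34 (adjusted p = 0.0238 by limma) with the representing one. The Bcl2l11 probe set given below was at 0.23 over all 6 arrays. Quantile normalisation gave 0.0069 for Bcl2l13 and -0.00562 for the dimmest Bid probe set. Median centring gave -0.0485 for Bcl2l15, -0.0602 for Bcl2l10 and -0.0605 for that Bid probe set. Replicates 1 and 5 gave -0.0223 for Bcl2l10 and 0.056 for Bcl2l14. With single arrays left out, Bcl2l13 ranged from -0.309 to 0.101, Bcl2a1a from -0.0553 to 0.00828, Bcl2l10 from -0.017 to 0.0532, Bcl2l14 from -0.0506 to 0.0815, that Bid probe set from -0.0901 to 0.0883, and 1 Bcl2l11 probe set from -0.0229 to 0.438. The cause was not tested. Of the list counts, 159 stayed within 1.5 times and 21 did not.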
